A study of Mus musculus with 77 samples.

Results

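The nuclear genes of the mitochondrial respiratory chain were followed across mouse pancreatic duct organoids in which the transcription factor Neurogenin3 (Ngn3, gene symbol Neurog3) was switched on. Members were the protein-coding genes whose symbol starts with Nduf, Uqcr, Sdha, Sdhb, Sdhc, Sdhd, Cox4i, Cox5, Cox6, Cox7, Cox8 or Atp5, together with Cyc1 and Cycs, with pseudogenes left out. This gave 99 of the 46078 genes in the count table. By role, 36 encode subunits of complex I, 4 of complex II, 9 of complex III, 20 of complex IV and 17 of complex V. Another 12 encode assembly factors, 8 for complex I and 4 for complex II, and 1, Cycs, encodes somatic cytochrome c. The genes were taken by symbol and not by a measured value, although the choice was made with earlier results of these data known.

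The organoids came from C57BL/6 mouse pancreatic ducts and carried a two-vector lentiviral, doxycycline-dependent (Tet-on) system. One vector supplied GFP alone, GFP joined through a 2A peptide to HA-tagged wild-type Ngn3 (WT Ngn3), or the same with 6S-A Ngn3, in which all 6 serines that precede a proline were replaced by alanine. GFP+ cells were sorted by flow cytometry in pools of 50 for full-length mRNA sequencing (Smart-seq2). At 2 days the groups were GFP only, WT Ngn3 and 6S-A Ngn3, each with 3 numbered replicates of 6 technical repeats. At 8 days they were GFP+ WT Ngn3, GFP+ 6S-A Ngn3, and the no-color control cells of each construct, each with 3 numbered replicates of 1 to 3 technical repeats. No 8-day sample is labelled GFP only, so by the labels the controls of the 2 time points are different kinds of cell. A supplementary figure legend by the authors names GFP only as control at both times, and the labels do not settle this conflict. The labels do not say whether no-color cells were untransduced, uninduced or GFP-negative, so what the 8-day and control-cell comparisons contrast is known only that far. Cells were at passage 2, except replicate 3 of every 8-day group, which was 1 pool at passage 5. The labels name no separate animals or cultures for the numbers, so p-values measure the spread between these samples, which may be technical. The model is limited to transduced, cultured duct cells that express the factor from a viral vector.

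The respiratory chain passes electrons from NADH and succinate to oxygen and pumps protons across the inner mitochondrial membrane. Complex I oxidises NADH, complex II oxidises succinate as part of the citric acid cycle, complex III hands electrons to cytochrome c, complex IV reduces oxygen, and complex V uses the proton gradient to make ATP. Apart from complex II, each complex also holds subunits encoded by mitochondrial DNA, and assembly factors are needed to build it without staying in it. Several complex IV subunits exist as a common form and a form restricted to heart and skeletal muscle, lung or testis. Oxidative ATP production is best known in pancreatic islets as the step that couples glucose to insulin release in mature beta cells. Ngn3 acts earlier, in the progenitors that give rise to all islet cell types.

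Reads assigned to genes, summed per replicate, ranged from 17757303 to 26627347 at 2 days and from 2397470 to 17919627 at 8 days. Neurog3 stood at 0.0385 to 0.0732 counts per 1000000 reads (CPM) in GFP-only replicates and at 89.6 to 206 CPM in all replicates with either protein at 2 days. At 8 days it was 6.85 to 46.1 CPM in GFP+ cells and 0 to 0.989 CPM in no-color cells. Reads of the introduced coding sequence and of the cell's own gene cannot be told apart in this table. The ductal label fitted the data, with Krt19, a duct keratin, at a mean of 638 CPM in GFP-only cells. Of 12 ductal markers, 7 fell at 2 days with the wild-type protein, and 7 with 6S-A. Their summed share of gene reads was 1.98 to 2.14% in GFP-only, 1.23 to 1.34% in WT and 1.01 to 1.11% in 6S-A replicates. Of 15 endocrine markers, 11 had enough reads to be tested, and of these 9 rose with WT and 11 with 6S-A. They include Neurog3 itself, which the vectors supplied, so its rise was set by the design. Markers nearly absent in GFP-only cells could hardly have been called lower. The hormone genes Ins1, Ins2, Gcg and Ppy were not tested. All 15 together held at most 0.187% of gene reads in any 2-day replicate, and Ins2, one of the 2 mouse insulin genes, had no read in any group. Of 8 proliferation markers, 6 and 8 fell. Of all genes tested at 2 days, 6.56% were called higher and 5.22% lower with WT, and 9.43% and 8.63% with 6S-A. Among acinar, fibroblast, endothelial and immune markers Vim rose and Csf1r fell with both proteins, Cela1 fell with WT and Pecam1 rose with 6S-A. The fibroblast markers held at most 0.0116% of gene reads in any replicate and each of the other 3 lists at most 0.00208%. At 8 days the endocrine share was 0.112 to 0.583% in replicates 1 and 2 of the GFP+ groups, and 0.00395% and 0.0161% in replicate 3 of WT and 6S-A. The part of these marker shifts in the results below was not tested. Replicate 3 of the no-color WT group stood apart in the respiratory chain genes, and the main 8-day medians and counts are given with and without it. An outlier rule on the member shares of that group's pools did not flag it, and leaving it out was chosen after seeing the data.

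Promoter windows of 250 bases up to an annotated transcript start, from RefSeq's table on GRCm38.p6, were found for 81 of the 99 members (86 windows). They are shown for the pair of members that changed with both proteins at 2 days. Ndufaf4 (ENSMUSG00000028261, chromosome 4, 24898083 to 24905001, plus strand) encodes an assembly factor of complex I. Its window, on the plus strand of chr4:24897833-24898082, holds an NRF1 motif, the site of a factor known to act on many respiratory genes 113 bases before the start. It also holds a CAGATG E-box, a form bound by factors of the Ngn3 family, 122 bases before the start, and capitals mark both. Cox7a1 (ENSMUSG00000074218, chromosome 7, 30184144 to 30186078, plus strand) encodes the heart and skeletal muscle form of a small complex IV subunit. Its window, on the plus strand of chr7:30183921-30184170, ends 27 bases past the gene's principal start and holds none of the motifs searched.
Ndufaf4: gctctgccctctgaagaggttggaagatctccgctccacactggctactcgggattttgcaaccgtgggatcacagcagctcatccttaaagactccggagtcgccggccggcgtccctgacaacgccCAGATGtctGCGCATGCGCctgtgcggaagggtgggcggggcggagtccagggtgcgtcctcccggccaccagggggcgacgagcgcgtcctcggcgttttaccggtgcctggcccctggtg
Cox7a1: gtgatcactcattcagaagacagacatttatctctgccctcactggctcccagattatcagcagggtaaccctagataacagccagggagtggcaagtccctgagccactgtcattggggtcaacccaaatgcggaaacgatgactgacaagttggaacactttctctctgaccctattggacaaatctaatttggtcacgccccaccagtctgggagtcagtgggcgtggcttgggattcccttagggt
The search took 5 words on both strands. The NRF1 word was in 15 of the 86 windows (17.4%), against 3.74% of all 32851 windows in the table. An ETS word, CCGGAAG, was in 16 (18.6%, against 6.91%) and a YY1 word, AAGATGGCG, in 1 (1.16%, against 0.606%). The E-box CAGATG was in 11 (12.8%, against 14.4%) and CAGCTG in 6 (6.98%, against 13%). A match is only a run of letters and says nothing of binding in these cells.

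Levels between genes were compared as CPM per kilobase of transcript, averaged over the 7 groups. The highest were Cox4i1 at 1009, the common form of a regulatory complex IV subunit, Atp5b at 758, the catalytic beta subunit of complex V, and Uqcrq at 685, a small subunit of complex III. Cox8a at 616 and Cox6a1 at 594, both the common forms of complex IV subunits, followed. Without no-color WT replicate 3, a library described with the 8-day values, these 5 were at 798, 766, 438, 444 and 455, in that order, so that Uqcrq moved from the third to the fifth place. The lowest tested members were Sdhaf1 at 4.29 and Sdhaf3 at 3.37, both complex II assembly factors, Cycs at 1.45, Cox4i2 at 0.864, the lung form of Cox4i1, and Ndufa4l2 at 0.410, a hypoxia-linked relative of Ndufa4. Most Ndufa4l2 reads came from no-color WT replicate 1, and without it the level was 0.139. For Cycs and Sdhaf1, 28.5% and 69% of their 50-base words also occur in another gene. The table lists no read as placed more than once and does not say how such reads were treated, so these 2 levels are uncertain. Levels of Atp5g2 (100% of words shared) and Atp5g1 (66%), which encode the same c subunit of complex V as Atp5g3, are uncertain in the same way. Of the complex IV forms known from other tissues, 4 were at or near 0: over all libraries Cox6a2 had 3 reads, Cox7b2 had 4, Cox8c had 1 and Cox8b had none. These 4 were not tested, which left 95 members in every comparison. Cox7a1 and Cox4i2 were low but tested, and Cox6b2, known as the testis form of Cox6b1, was at a mean of 78.2 CPM in GFP-only cells.

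At 2 days, 2 of 95 members changed with the wild-type protein, and 3 of 95 with 6S-A, relative to GFP only. The background was 11.8% of all 23844 genes tested for WT (6.56% higher and 5.22% lower) and 18.1% for 6S-A (9.43% higher and 8.63% lower). Cox7a1 rose and Ndufaf4 fell with both proteins, and Ndufb9, an accessory subunit of complex I, rose with 6S-A. The median log2 fold change of the 95 was 0.03 for WT and 0.02 for 6S-A, beside 0.01 and 0.02 for all genes. Members above 0 numbered 55 and 48. On simulated 2-day counts the same test made more false calls than its threshold names. At an unadjusted p under 0.05 stood 6 members for WT (6.32%, against 23% of all genes) and 8 for 6S-A (8.42%, against 28.9%). In pooled cells, fewer cells of a type and less RNA per cell cannot be told apart. Both comparisons share the GFP-only replicates.

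Cox7a1 was at 0.84, 1.27 and 0.79 CPM in GFP-only replicates 1 to 3, at 2.70, 2.62 and 5.12 CPM with WT Ngn3, and at 6.55, 4.79 and 5.13 CPM with 6S-A Ngn3. Every Ngn3 replicate lay above every GFP-only replicate, and the 2 Ngn3 groups overlapped. The log2 fold change was 1.85 ± 0.38 (SE, n = 3 per group, 3.61-fold, edgeR quasi-likelihood adjusted p = 0.0048) with WT and 2.50 ± 0.38 (5.65-fold, adjusted p = 0.00033) with 6S-A. Under spike-in scaling the WT value was 1.60 (adjusted p = 0.062) and no longer passed. With the first technical repeat alone neither call held, at 1.39 with WT (adjusted p = 0.52) and 2.59 with 6S-A (adjusted p = 0.079). The counts behind it were 17 to 33 reads per GFP-only replicate and 50 to 143 per Ngn3 replicate. Per kilobase it reached 14 CPM in 6S-A cells, while Cox7a2, the common form of the same subunit, stood at 226 CPM in GFP-only and 265 in 6S-A cells. Cox7a2 itself stood 0.20 higher on the log2 scale with WT (adjusted p = 0.47) and 0.23 higher with 6S-A (adjusted p = 0.32), neither past the threshold. The restricted form thus rose from a very low level beside an abundant common form.

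Ndufaf4 was at 45.2, 48.6 and 44.6 CPM in GFP-only replicates, at 32.0, 27.2 and 23.1 CPM with WT Ngn3, and at 22.2, 27.8 and 29.8 CPM with 6S-A Ngn3. All 6 Ngn3 replicates lay below all 3 GFP-only replicates. It fell by 0.74 ± 0.15 on the log2 scale with WT (adjusted p = 0.0054) and by 0.80 ± 0.15 with 6S-A (adjusted p = 0.0021). Neither call held under spike-in scaling, with -0.88 for WT (adjusted p = 0.27) and -0.99 for 6S-A (adjusted p = 0.12). With the first technical repeat alone both were -0.80 (adjusted p = 0.23 and 0.17), again short of the threshold. Among the 12 assembly factors the median log2 fold change was -0.13 with WT and -0.18 with 6S-A, with 4 and 3 above 0. Ndufaf6, an assembly factor of complex I, had -0.63 with WT (adjusted p = 0.060), and Ndufaf3, another, had 0.44 with 6S-A (adjusted p = 0.084). The assembly factors as a group thus held values in both directions.

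Ndufb9 (ENSMUSG00000022354, chromosome 15, 58933756 to 58939488, plus strand) was at 208, 234 and 180 CPM in GFP-only replicates, at 240, 261 and 248 CPM with WT, and at 248, 294 and 280 CPM with 6S-A. Neither Ngn3 group overlapped the GFP-only group. The log2 fold change was 0.40 ± 0.11 with 6S-A (1.32-fold, adjusted p = 0.023) and 0.28 with WT (adjusted p = 0.15). Of its 50-base words 23.4% are shared with another gene, so its level is uncertain, and the call was lost when any one of GFP-only replicates 1 or 3 or 6S-A replicates 2 or 3 was left out (adjusted p 0.062 to 0.095). Under spike-in scaling it had 0.21 with 6S-A (adjusted p = 0.90). When the fit took replicate numbers as blocks, 4 of 95 members were called for WT and 7 of 95 for 6S-A, where 18% and 24.8% of all genes were called. For WT the block added Ndufb9 and Ndufaf6. For 6S-A it added Sdha, the flavoprotein of complex II, at -0.35, and Ndufa6 at 0.33, Uqcrh at 0.32 and Ndufaf3 at 0.44, 3 small proteins of or for complexes I and III.

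**Figure D1:**
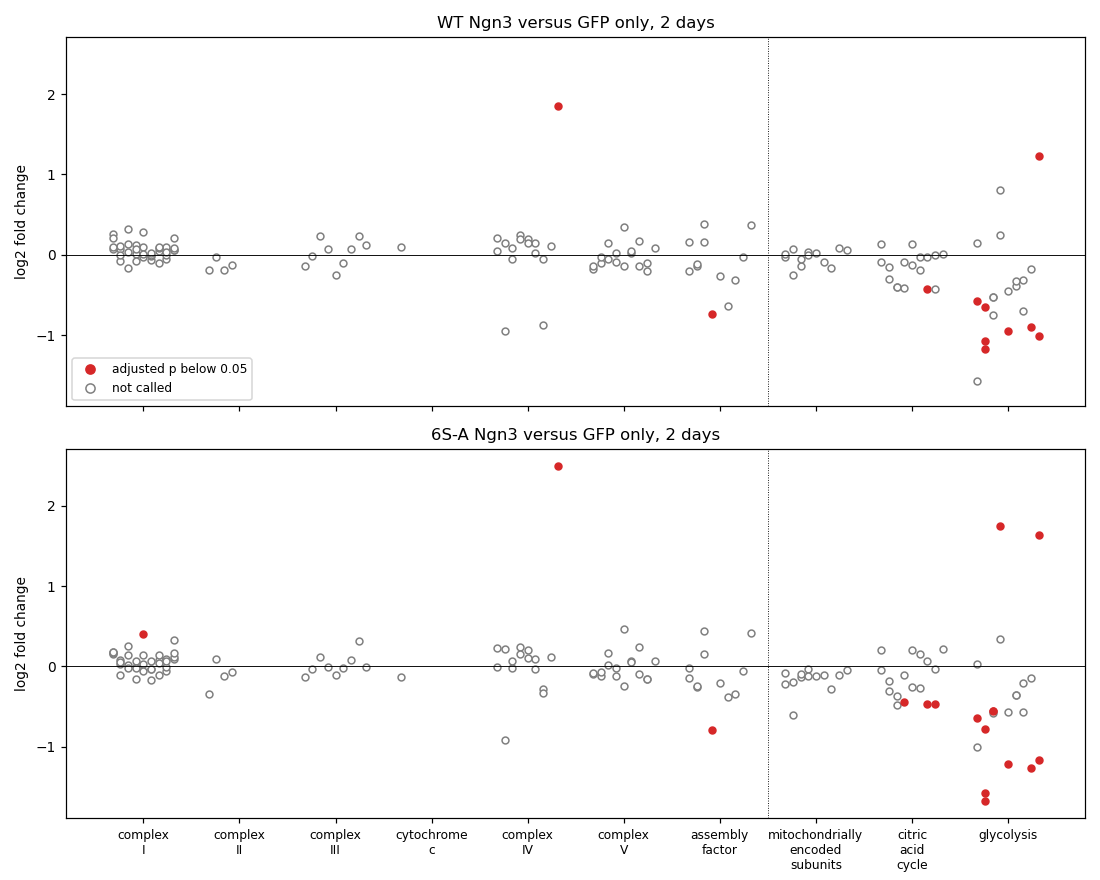
Log2 fold change against GFP-only cells at 2 days (vertical axis) for each member, grouped by complex, and for mitochondrially encoded subunits, citric acid cycle and glycolysis genes, with WT Ngn3 in one panel and 6S-A Ngn3 in the other. Each point is 1 gene and red points passed the adjusted threshold. Most members sit close to 0, Cox7a1 stands alone at 1.85 and 2.50, a few low-level complex IV genes lie lower without passing the threshold, and 17 of 21 glycolysis genes lie below 0 in each panel.

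The medians of complexes I to V lay between -0.16 and 0.13 on the log2 scale. In complex I the median log2 fold change was 0.06 with either protein (26 and 24 of 36 above 0). Ndufs1, which carries iron-sulfur clusters, was at 96.3 ± 1.66 CPM in GFP-only, 95.0 ± 7.87 in WT and 96.1 ± 6.89 CPM in 6S-A cells (SD, n = 3). In complex II the median was -0.16 and -0.09, with 0 and 1 of 4 above 0. Sdha was at 298, 279 and 229 CPM in GFP-only, 270, 216 and 214 CPM in WT, and 239, 211 and 184 CPM in 6S-A replicates. Those groups overlapped, although within each replicate number it was lower with either protein than in GFP-only cells, and its values of -0.19 (adjusted p = 0.47) and -0.35 (adjusted p = 0.10) did not pass. In complex III the medians were 0.07 and -0.01, and Uqcrc1, a core protein, was at 276 ± 41.5, 231 ± 17.9 and 256 ± 2.92 CPM. Complex IV had medians of 0.13 and 0.09, and Cox4i1 was at 604 ± 107, 618 ± 34.4 and 598 ± 18.2 CPM. Complex V had medians of -0.06 and -0.07 with 7 of 17 above 0 in each, and Atp5b was at 1245 ± 148, 1152 ± 134 and 1150 ± 37.9 CPM. Cycs was at 4.33 ± 0.543, 4.61 ± 0.555 and 3.97 ± 0.852 CPM. None of these core subunits passed the threshold in either comparison, but with the replicate block Sdha was called with 6S-A (-0.35, adjusted p = 0.0029).

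Isoform pairs kept their order in the 2-day groups. Cox4i2 was at 0.826, 0.423 and 0.433 CPM in GFP-only, WT and 6S-A cells. Cox6b2 was at 78.2, 75.0 and 64.2 CPM beside Cox6b1 at 336, 367 and 356 CPM. Ndufa4l2 was at 0.179, 0.0964 and 0.143 CPM beside Ndufa4, a complex IV subunit despite its symbol, at 352, 354 and 344 CPM. Cox7a1 was the only member of these pairs that passed the threshold with either protein. Atp5g3, one of the genes of the c subunit, was at 216, 226 and 226 CPM.

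The comparison of 6S-A with WT Ngn3 at 2 days asks whether removing the phosphorylation sites changed the response. No member passed the threshold (0 of 95, against 0.0126% of all genes, 3 in number, by edgeR). None had an unadjusted p under 0.05, against 5.79% of all genes, and DESeq2 also called none. The median log2 difference was 0.01 and the members ranged from -0.23 to 0.65. Cox7a1 had the highest value, 0.65, with a 95% interval from -0.11 to 1.40 (adjusted p = 0.95). For 84 of the 95 members the interval of the difference lay within 0.5 log2 units of 0 on both sides, and for 92 within 1 unit. Ndufs1 had an interval from -0.23 to 0.24, Cox4i1 from -0.32 to 0.20 and Atp5b from -0.26 to 0.24. For Cox7a1 a difference of more than 1 unit thus lay inside the interval.

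Genes of neighbouring pathways gave other counts in the same fits, to be read against the same background of 11.8% of all genes for WT and 18.1% for 6S-A. Of 21 glycolysis genes, 7 fell and 1 rose with WT, and 9 fell and 2 rose with 6S-A, with median log2 fold changes of -0.53 and -0.57. Among those that fell were Slc2a1, a glucose transporter (-1.18 and -1.68), Ldha, a lactate dehydrogenase subunit (-1.01 and -1.16), and Aldoc, an aldolase (-1.07 and -1.58). Slc16a1, a lactate and pyruvate transporter, rose by 1.23 and 1.64 on the log2 scale, and Eno2, the neuronal and endocrine enolase, rose by 1.74 with 6S-A. The median of the 17 citric acid cycle genes was -0.13 and -0.18. With WT 1 of them fell, Idh3a (-0.42), and with 6S-A 3 fell: Idh3a (-0.47), Suclg2 (-0.47) and Pdha1 (-0.44), which feeds pyruvate into the cycle. The 13 genes of mitochondrial DNA that encode subunits had medians of 0.00 and -0.12 with none called.

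Of 16 regulators of mitochondrial biogenesis none changed with WT, and 3 fell with 6S-A (18.8%, a share close to the background): Ppargc1b (-3.81), Pprc1 (-0.51), both coactivators, and Gabpa (-0.42), the DNA-binding part of an ETS factor. Among 78 mitochondrial ribosome genes 1 rose with WT, Mrpl1 (1.07), while with 6S-A Mrpl1 (1.40) and Mrpl38 (0.39) rose and Mrps27 (-0.51) and Mrpl33 (-0.48) fell. Of 77 cytosolic ribosome genes none and 1 changed, the latter Rpl10a (-0.44). Among 31 assembly factors tested whose symbols fall outside the rule, Tmem70, needed for complex V assembly, rose with both proteins (0.89 and 1.04), and Cox19, a copper-handling factor of complex IV, rose with 6S-A (0.47). The difference between 6S-A and WT passed the threshold for no gene of these lists at 2 days. These lists describe the surroundings of the members, and whether they differ from them was not tested.

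Summed over all 99 members, the chain took 1.29 ± 0.19% of gene reads in GFP-only cells, 1.34 ± 0.044% with WT and 1.36 ± 0.053% with 6S-A at 2 days (SD, n = 3). By replicate the shares were 1.29, 1.47 and 1.09% in GFP-only, 1.32, 1.39 and 1.30% in WT, and 1.33, 1.42 and 1.32% in 6S-A cells. The groups overlapped. Single pools of 50 cells ranged from 0.856 to 1.68% at 2 days, and in every 2-day group the pools of replicate 3 spread widest (0.862 to 1.32% in GFP-only, 0.856 to 1.68% in WT and 0.933 to 1.64% in 6S-A). The subunits encoded by mitochondrial DNA took 2.98 to 3.38% in the 2-day replicates. Glycolysis genes took 0.463, 0.409 and 0.346% in GFP-only replicates, 0.330, 0.288 and 0.255% in WT and 0.335, 0.301 and 0.240% in 6S-A replicates.

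**Figure D2:**
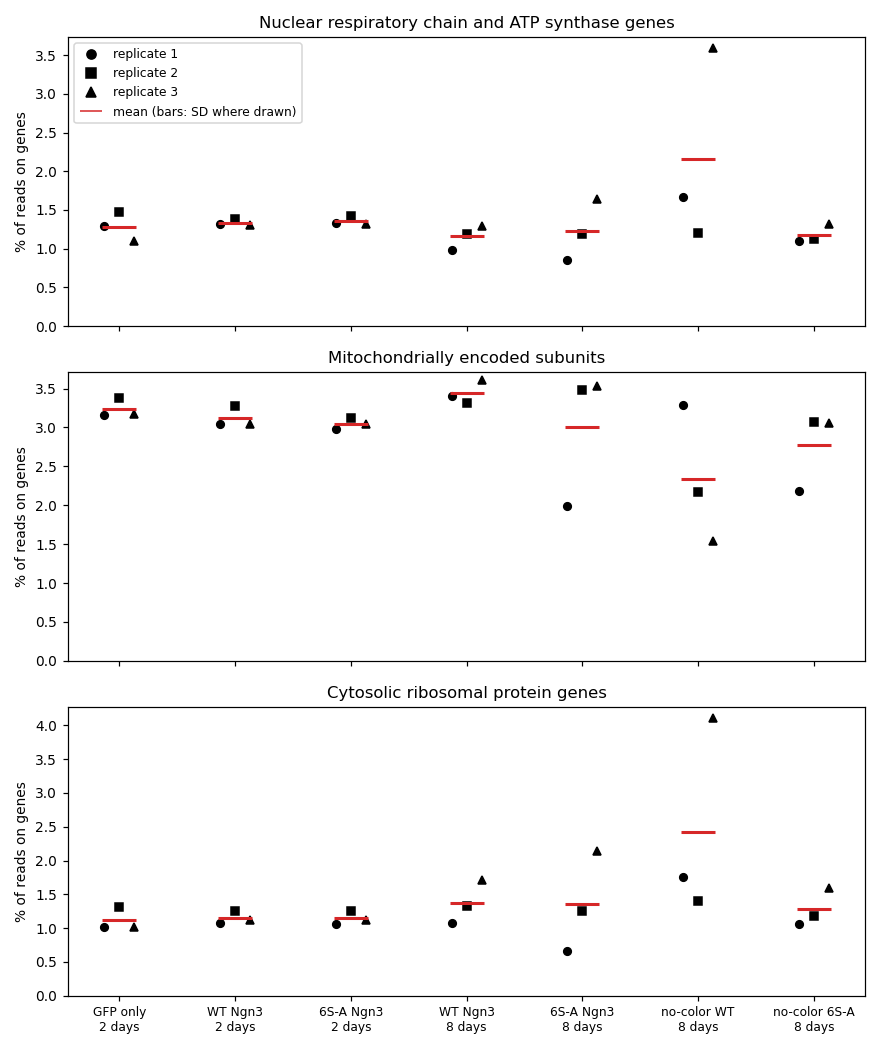
Share of gene reads (percent, vertical axis) by group and replicate, for the members, the subunits encoded by mitochondrial DNA and the cytosolic ribosome genes, 1 panel each. Points are replicates, and red lines give the group means. At 2 days the members' shares overlap between groups, and at 8 days replicate 3 of the no-color WT group lies at 3.60%.

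At 8 days the members' shares were 0.988, 1.19 and 1.30% in WT, 0.854, 1.18 and 1.64% in 6S-A, 1.66, 1.20 and 3.60% in no-color WT and 1.09, 1.12 and 1.33% in no-color 6S-A replicates. The no-color WT value of 3.60% came from replicate 3, which had 2397470 gene reads, the fewest of all, 15592 detected genes and 4.10% of reads on cytosolic ribosome genes. Short transcripts were high in it: Cox4i1 was at 3896 CPM and Ndufa3, a small complex I subunit, at 824 CPM, against 402 to 898 and 26.9 to 63.3 CPM in the other no-color replicates. Ndufs1 was at 22.5 CPM, against 97.7 to 155 CPM in those replicates. The median within-group SD of a member on the log2 scale was 0.174 at 2 days and 0.867 at 8 days, or 0.616 without that library.

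No member passed the threshold at 8 days for WT against no-color cells (0 of 95, background 0.914%), or for 6S-A against them (0 of 95, background 1.71%). At an unadjusted p under 0.05 stood 1 member for WT (against 10.5% of all genes) and 3 for 6S-A (against 12.1%). DESeq2 called none in either. Without the filter on low counts 5 of 97 members were called for WT (2.68% of all genes) and 10 of 97 for 6S-A (3.86% of all genes), all of them lower. For WT these were Atp5e, Ndufb7, Ndufa3, Atp5k and Uqcr10. With no-color WT replicate 3 also left out (chosen after seeing the data), none of them was called, and 1 other member was for WT, Cox6b2, which was higher. Both comparisons used the mean of the no-color cells of both constructs as control, so they share those replicates. The median log2 fold change was -0.61 in both, with 89 and 86 of 95 below 0, where all genes had 0.01 for WT and 0.04 for 6S-A. Without no-color WT replicate 3 the medians were -0.16 and -0.16, with 68 and 69 below 0. In that fit 8 members for WT and 2 for 6S-A, Ndufaf7 and Cox7a2l, had an unadjusted p under 0.05, and again none passed the threshold. Within passage 2 they were -0.18 and -0.49, and against each construct's own no-color cells -1.33 and 0.06. For WT against its own no-color cells 50 of 95 members had an unadjusted p under 0.05 and none passed the threshold. The all-gene share at that unadjusted p is not given for this control or for fits without no-color WT replicate 3. With no filter on low counts 44 of 97 members were called in this WT comparison (2.75% of all genes). Without no-color WT replicate 3 the own-control medians moved to -0.40 and 0.05, and the WT counts to 8 unadjusted and, with no filter, 0 called. The direction for 6S-A thus turned with the choice of control cells. Most intervals were wide, with a median half-width of 1.19 and 1.18 log2 units, or 0.861 and 0.853 without that replicate, and in both fits none of the 95 lay within 0.5 units of 0.

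By complex the 8-day medians for WT were -0.69 in complex I (36 of 36 below 0), -0.45 in complex II, -0.76 in complexes III and IV and -0.62 in complex V. For 6S-A they were -0.61, -0.17, -0.61, -0.86 and -0.62 in complexes I to V. Without no-color WT replicate 3 (chosen after seeing the data) the WT medians were -0.14 in complex I (25 of 36 below 0), -0.59 in II, -0.27 in III, -0.08 in IV and -0.27 in V. The 6S-A medians were then -0.11, -0.33, -0.22, -0.18 and -0.25. Atp5b was at 1112, 1062 and 1496 CPM in WT, 1494, 1359 and 2048 CPM in 6S-A, 2546, 1393 and 1154 CPM in no-color WT and 2347, 1684 and 2170 CPM in no-color 6S-A replicates. Those groups overlapped. Ndufaf4, which fell at 2 days, was at 38.3, 45.7 and 51.0 CPM in WT, 28.8, 37.0 and 48.7 CPM in 6S-A and 42.1, 52.9 and 48.9 CPM in no-color 6S-A replicates, while no-color WT stood at 49.7, 71.8 and 130.2 CPM. Of the neighbouring lists 1 gene passed the threshold, Slc16a1, at 1.64 with 6S-A (adjusted p = 0.023).

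The 3 unadjusted members for 6S-A were Cox7a2l (-0.63, adjusted p = 0.33), Ndufaf4 (-0.74, adjusted p = 0.39) and Atp5e (-1.72, adjusted p = 0.39), a small complex V subunit. For WT it was Ndufaf7 (-0.66, adjusted p = 0.47), a methyltransferase that acts in complex I assembly. Atp5e was at 1312 CPM in no-color WT replicate 3 and at 41.3 to 121 CPM in the other no-color replicates. Without that replicate Atp5e had -0.66 (adjusted p = 0.61), Ndufaf4 -0.53 (adjusted p = 0.52), Cox7a2l -0.67 (adjusted p = 0.27) and, for WT, Ndufaf7 -0.75 (adjusted p = 0.34). Cox7a1 was at 0.56, 0.64 and 0.20 CPM in WT, 0.30, 1.17 and 0.15 CPM in 6S-A and 0.31, 0.27 and 0.12 CPM in no-color 6S-A replicates. In no-color WT it was at 0.66, 0.22 and 7.49 CPM, and only 1 to 13 reads lie behind each 8-day value. The 2-day pattern of Cox7a1 was therefore not seen at 8 days at this depth. For 6S-A against WT at 8 days no member was called (0 of 95, background 0%), and none had an unadjusted p under 0.05 (against 2.11% of all genes). The members' median there was 0.01 with a median half-width of 1.33.

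**Figure D3:**
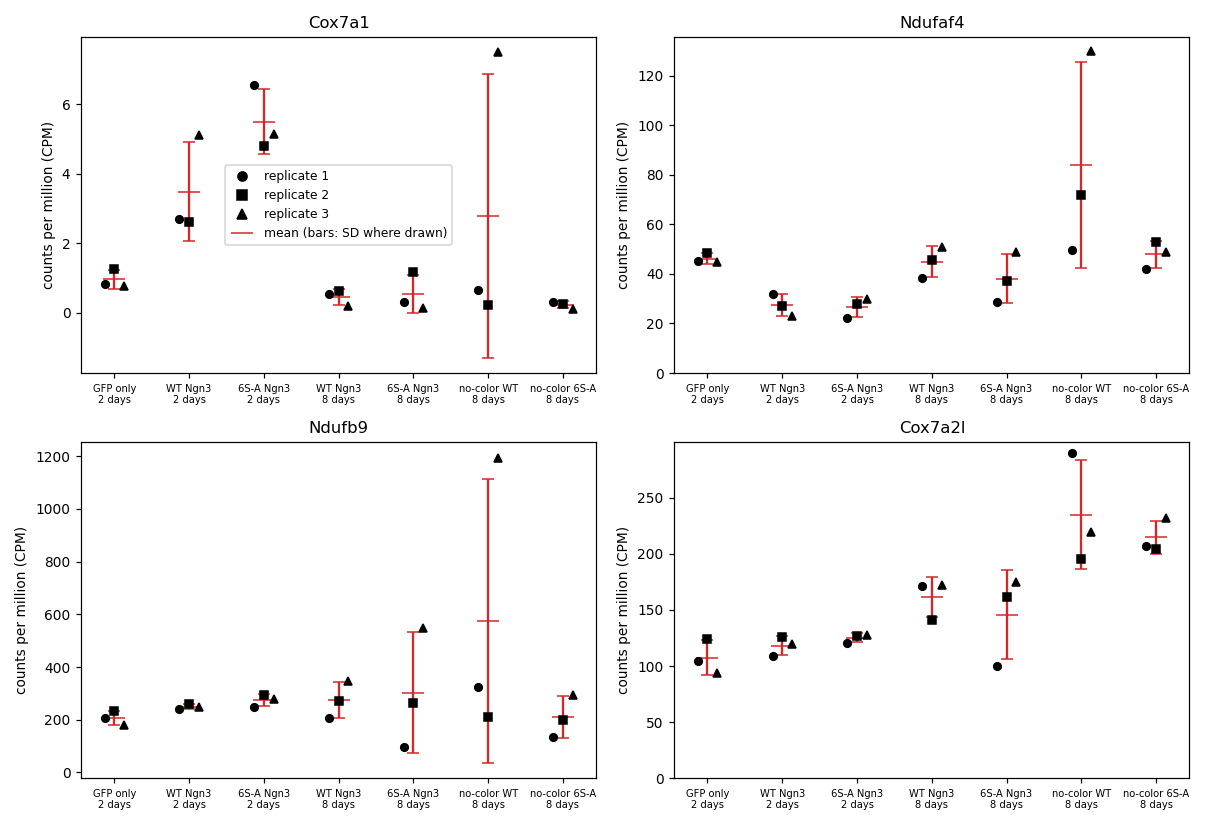
CPM (linear vertical axis) of the 4 members that passed the threshold in any comparison, by group, with 1 point per replicate and the mean and SD in red. The 2-day Ngn3 points of Cox7a1 lie above and those of Ndufaf4 below the GFP-only points, and the no-color WT point of Cox7a1 at 7.49 CPM is replicate 3.

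Between 2 and 8 days, no member passed the threshold in WT Ngn3 cells (0 of 95, background 0.116%, 7 unadjusted against 8.21% of all genes). None did in 6S-A Ngn3 cells (0 of 95, background 0.433%, 7 unadjusted against 11.9% of all genes). The medians were -0.13 and -0.14, beside -0.14 and -0.12 for all 24945 genes. Cox7a1 had -2.89 in WT (adjusted p = 0.45) and -3.33 in 6S-A cells (adjusted p = 0.17). Complex IV had medians of -0.64 and -0.75, with 13 and 15 of 16 below 0, and all 4 complex II subunits lay above 0 in both (medians 0.17 and 0.45). Members under 600 bases had medians of -0.70 and -0.77, beside -0.63 and -0.62 for all protein-coding genes of that length. The longest members had 0.23 and 0.40, beside -0.08 and -0.04. In control cells, GFP-only at 2 days against no-color at 8 days, Cox7a2l rose (1 of 95, background 0.914%). It encodes a protein known for helping complexes III and IV to join, a role that was not tested in these cells. Its gene lies on chromosome 17, 83501918 to 83517330, minus strand.

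Cox7a2l was at 105, 124 and 93.6 CPM in GFP-only cells, at 290, 196 and 220 CPM in no-color WT and at 208, 205 and 232 CPM in no-color 6S-A cells. All no-color values lay above all GFP-only values, with a log2 fold change of 1.06 ± 0.21 (2.09-fold, adjusted p = 0.0138). The call was lost without GFP-only replicate 1 or 3 (adjusted p = 0.13), under spike-in scaling (0.82, adjusted p = 0.71) and with the first technical repeat alone (1.06, adjusted p = 0.092). Its sequence shares 19.8% of its 50-base words with another gene, so the level is uncertain. The members' median in this comparison was 0.42 with 86 of 95 above 0, where all genes had -0.18. Without no-color WT replicate 3 it was -0.07 with 50 below 0, so the direction turned. Under spike-in scaling it was -0.09 with 55 below 0. That scaling shifts all genes together, and the all-gene median under it is not given, so this value shows no turn particular to the members. Without that replicate 5 of 95 members were called, where 1.49% of all genes were: Cox7a2l, Atp5a1 (the alpha subunit of complex V, 0.74) and Uqcrc1 (0.86) rose, and Ndufa3 (-1.20) and Cox6b2 (-2.02) fell.

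The change over time with each protein, against that in control cells, was significant for no member (0 of 95 for WT, background 0%, and 0 of 95 for 6S-A, background 0.012%). At an unadjusted p under 0.05 stood 0 members for WT (against 5.29% of all genes) and 2 for 6S-A (against 5.7%). The medians were -0.67 and -0.63, with 86 and 84 below 0, and without no-color WT replicate 3 -0.23 and -0.18. Against each construct's own no-color cells they were -1.36 and 0.08, with 87 and 35 of 95 below 0, so the direction for 6S-A turned. There 45 members for WT had an unadjusted p under 0.05, with no all-gene share given. With no filter on low counts 35 of 98 members were called for WT there (1.03% of all genes). Those WT values moved to a median of -0.41, 3 unadjusted and, with no filter, 0 called without no-color WT replicate 3. With pooled no-color cells and all libraries Cox7a2l (-0.85, adjusted p = 0.73) and Cox7a1 (-2.98, adjusted p = 0.85) were the 2 unadjusted members for 6S-A.

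Transcript length moved with these 8-day medians. For WT against no-color cells, the 26 members under 600 bases had a median of -0.94 and the 21 members of the longest class -0.46. All protein-coding genes tested in those length classes had -0.85 and 0.08. For 6S-A the members had -0.94 and -0.29, and all genes -0.89 and 0.11. Without no-color WT replicate 3 the short members had -0.13 and -0.12 and the long ones -0.42 and -0.33. At 2 days the short members had 0.13 and 0.11, beside 0.05 and -0.04 for short protein-coding genes in general. The part of transcript length in the members' values was not tested beyond this split.

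**Figure D4:**
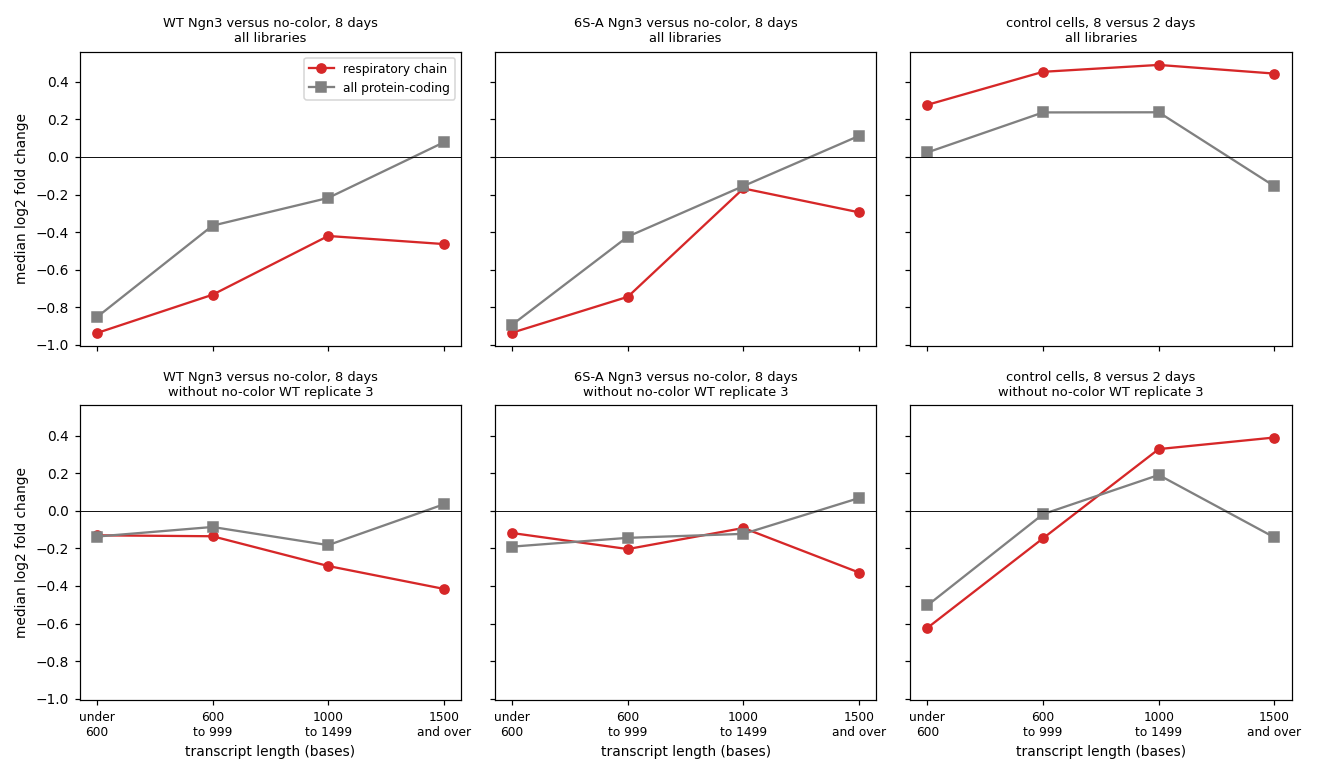
Median log2 fold change (vertical axis) by transcript length class (horizontal axis, bases) for members and for all protein-coding genes tested, with and without replicate 3 of the no-color WT group. With that library the shortest members lie at -0.94 against no-color cells for both proteins, and without it at -0.13 and -0.12.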

How the data were processed

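Pools of 50 sorted cells (77 libraries) were sequenced by the authors. Per the labels, reads were aligned with GSNAP 2015-09-29 to mm10 and counted per gene with HTSeq 0.5.3p3. The deposited values are raw read counts, with strandedness not stated. Of all reads in the table, 14.4% had no feature, 8.06% were ambiguous and 22.5% were not aligned, and these stayed out of library sizes. No library exceeded 30% spike-in reads. A pool was kept with over 1000000 gene reads and over 10000 detected genes, which left 76 (1 pool of WT Ngn3, 8 days, was dropped).

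Counts were summed over technical repeats within a numbered replicate (n = 3 per group). Genes with reads in 5 or more pools of a fit were tested with edgeR 4.0.16 (R 4.3.3, quasi-likelihood F test, TMM, robust dispersions), with Benjamini-Hochberg adjustment over all genes and a threshold of 0.05. The 2-day groups, the 8-day groups and all groups together were 3 separate fits. CPM used TMM factors of the last. On simulated counts the test made more false calls at 2 days than its threshold names. Alternatives were DESeq2 1.42.0, scran 1.30.0 size factors, spike-in scaling, other filters, the replicate block and leaving out each replicate.

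The main fits did not pair samples by replicate number, and only the replicate block did. Deviations of equal-numbered replicates nonetheless correlated in every pair (r 0.119 to 0.556 at 2 days over 9 pairs, 0.117 to 0.670 at 8 days over 18). Named were members past the threshold (up to 10 each way), core subunits, isoform pairs, the 5 highest and 5 lowest members per kilobase, all members of counts of 5 or fewer, and up to 4 genes of each other list. Unadjusted members of counts above 5 and other single values were named after their values were seen. The members and lists were chosen with earlier results of these data known. Spread and depth limit precision, and intervals cover the spread between replicates.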

Additional observations from a re-analysis of the deposited data

How the results depend on the processing

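For WT Ngn3 against GFP only at 2 days, where 2 members were called, spike-in scaling and the first technical repeat alone gave 0 (5.11% and 3.87% of all genes), the replicate block 4 (18%), and leaving out 1 replicate 2 to 3. For 6S-A, with 3 called, spike-in scaling gave 1 (8.92%), DESeq2 5 (25.2%), the first technical repeat alone 0 (6.39%), the replicate block 7 (24.8%), and leaving out 1 replicate 2 to 5. Spike-in scaling moved the median of all genes to -0.17 and -0.15 and that of the members to -0.18 and -0.16. The members' median thus stayed beside that of all genes. Under it Cox7a1 had 1.60 (adjusted p = 0.062) with WT and 2.36 (adjusted p = 0.0016) with 6S-A, and with the first repeat alone adjusted p = 0.52 and 0.079. At 8 days, with none called, dropping the filter on low counts gave 5 for WT and 10 for 6S-A against no-color cells (2.68% and 3.86% of all genes). Between 2 and 8 days it gave 5 for WT, 8 for 6S-A and 2 for control cells (1.13%, 1.93% and 2.63%). For 6S-A over time, DESeq2 gave 1, Cox7a1 (4.74% of all genes), and passage 2 alone 1, Atp5j2 (0.799%). For control cells, with 1 called, spike-in scaling gave 0 (0%), DESeq2 7 (6.86%), the first repeat alone 0 (0.0508%), passage 2 alone (chosen after seeing the data) 5 (2.4%), and leaving out 1 replicate 0 to 5. The cause of these shifts was not tested. The block moved no other count of members by over 1.5 times. No direction of a called member reversed under any alternative run.

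Over all genes, spike-in scaling called 1219 and 2127 at 2 days and 38 and 100 at 8 days, the first repeat alone 637 and 1053 at 2 days, and the block 4292 for WT at 2 days and 472 and 704 at 8 days. DESeq2 called 551 and 822 at 8 days, and no filter 724 and 1044. For 6S-A against WT at 2 days DESeq2 called 101, no filter 100 and the block 149. Over time DESeq2 called 270, 721 and 1110 in WT, 6S-A and control cells, no filter 370, 630 and 856, and the block 76, 232 and 505. Scaling by total reads moved the share of higher calls from 81.1% to 93.5% for WT against no-color cells, from 53.7% to 39.6% for 6S-A over time and from 25.4% to 6.94% for control cells over time. Spike-in scaling moved it to 100% for both proteins at 8 days, from 81.1% and 80.1%, and for WT over time from 27.6% to 0%. At 8 days no member's interval lay within 0.5 log2 units of 0, and the median within-group SD was 0.867 there and 0.174 at 2 days.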
